A study of Homo sapiens with 16 samples.

Results

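The S100 proteins are small calcium-binding proteins of the EF-hand family, and 10 of their genes were followed here: S100P, S100A4, S100A6, S100A8, S100A9, S100A10, S100A11, S100A13, S100A14 and S100A16. They were taken by symbol from tables of 61228 gene rows, in which 32 rows carry a symbol that starts with S100. The group was chosen because S100P was lower after the induction of inflammatory bowel disease (IBD), so its fall is a description and not a test. RNA came from Caco-2 cells, a line derived from a human colon carcinoma whose cells polarise like enterocytes when grown on a support. The cells were kept on a villus-on-chip device that magnets set in motion. Per the labels, 4 replicates each were kept static, under a swing called physiological, under a swing called pathological, or under IBD induction, which gave 16 libraries.

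There are 4 deposited tables of 4 libraries, coded NOS1, VOS1, VOS2 and IBD. The swing samples are in VOS1 and VOS2, but which of the pair is physiological and which pathological cannot be read from the labels. NOS1 is the remaining code and was taken for the static control. The induced group is written IBD-VOS in the design text, without the swing it received. How the disease state was induced, at which dose and for how long, is not stated in these sources. All groups share 1 cell line and no genetic change, and no immune or stromal cell is named as a partner in the device. The counts of VOS1 were taken over shorter features of each gene, so this table is shown apart, with its values given and no test against the others.

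S100 proteins act inside the cell, where in most of them calcium opens a surface that binds partners such as annexins, ezrin or myosin. Some are released and bind receptors such as RAGE (the product of AGER) or TLR4. S100A8 and S100A9 form calprotectin, which neutrophils and inflamed epithelium release and which is measured in stool as a marker of intestinal inflammation. S100P was first found in placenta and is made by several epithelial tumours. S100A10 is the partner of annexin A2 at the plasma membrane, and S100A11 binds annexin A1.

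Libraries held 15078620 to 20609117 counts in NOS1, VOS2 and IBD and 21868713 to 28148186 in VOS1. Levels are given as CPM, a gene's counts scaled to a common library total, and fold changes as log2 values with their standard error (SE) from 1 edgeR model of the 12 libraries of NOS1, VOS2 and IBD. NOS1 replicates 1 and 4 stood apart: they lay at 59.8 and 43.6 on the first principal component, which held 29.1% of the variance, and the other 10 libraries between -32.9 and 6.6. Their summed epithelial markers were 9077 and 9625 CPM, against 12320 and 11570 CPM in NOS1 replicates 2 and 3. The keratins KRT8 and KRT18 led this sum, with NOS1 means of 5147 and 2186 CPM, whereas CDX2 ran from 180.6 to 211.3 CPM in NOS1. The sum thus mainly follows these keratins. Of the 12 epithelial markers, CDX1 had at most 2 counts in any of the 12 libraries of NOS1, VOS2 and IBD, and the other 11 had at least 57 counts in each. In bulk RNA, fewer cells of a type and less RNA per cell cannot be told apart.

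The promoters of 3 of the genes that carry the changes described below are shown, and that of S100A4 is not. S100P was lower and S100A9 higher in IBD than in VOS2, and S100A6 varied widely among the static libraries together with S100A4. Each sequence is RefSeq's, on build GRCh38.p14, from 250 bases before to 50 bases after the annotated start, on the strand of the gene. Capitals mark TATAAA in S100P and S100A9 and GCGNGGGCG, a core motif of EGR1, in S100A6. EGR1 is the zinc-finger transcription factor that the series title names.

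S100P, chr4:6693628-6693927, plus strand: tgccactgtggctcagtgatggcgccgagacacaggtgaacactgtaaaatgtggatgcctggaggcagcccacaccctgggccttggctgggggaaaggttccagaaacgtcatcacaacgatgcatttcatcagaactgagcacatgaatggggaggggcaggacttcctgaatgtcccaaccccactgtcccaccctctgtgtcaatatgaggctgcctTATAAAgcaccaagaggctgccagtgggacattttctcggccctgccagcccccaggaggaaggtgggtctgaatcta
S100A9, chr1:153357604-153357903, plus strand: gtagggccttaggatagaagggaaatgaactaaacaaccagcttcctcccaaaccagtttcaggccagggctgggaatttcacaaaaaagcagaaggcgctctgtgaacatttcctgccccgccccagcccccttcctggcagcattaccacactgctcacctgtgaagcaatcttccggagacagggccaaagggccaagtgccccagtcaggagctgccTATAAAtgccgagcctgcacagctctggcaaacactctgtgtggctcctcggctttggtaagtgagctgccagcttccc
S100A6, chr1:153535942-153536241, minus strand: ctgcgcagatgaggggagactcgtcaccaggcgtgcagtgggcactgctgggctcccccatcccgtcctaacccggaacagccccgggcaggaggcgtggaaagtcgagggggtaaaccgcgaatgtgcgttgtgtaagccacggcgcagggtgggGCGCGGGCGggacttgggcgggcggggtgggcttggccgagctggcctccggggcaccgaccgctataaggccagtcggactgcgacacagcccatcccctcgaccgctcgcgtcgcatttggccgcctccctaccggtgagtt

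TATAAA begins 28 bases before the start of S100P and 29 bases before that of S100A9. It is found in 11.53% of the 35116 RefSeq promoters of the same length, searched on both strands. Among the S100 genes it was also in the promoter of S100A4, 31 bases before the start. It was in part of the promoters of S100A8 and S100A13 as well, so it does not set S100P and S100A9 apart. The EGR1 motif begins 94 bases before the start of S100A6 and occurs in 9.434% of all promoters. Among the 15 promoters of the 10 genes it was found in that of S100A6 alone. The promoter of S100A4, which varied more than S100A6 among the static libraries, lacks it. The AP-1 motif TGANTCA, present in 7.709% of all promoters, was in 0 of the 15. The HIF motif ACGTG, in 21.41% of all promoters, was in that of S100A10 and in 1 of the 2 of S100A16. A loose NF-kB motif, GGG and CC with 5 free bases between them, in 58.67% of all promoters, was in neither S100P nor S100A9. In the S100A6 promoter it has 5 matches over both strands, including a match on each strand at the same place. None of these matches overlaps the EGR1 motif. These matches describe the letters in the windows and say nothing of binding.

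S100P was lower after IBD induction than in either NOS1 or VOS2. The gene lies on chromosome 4, between bases 6693069 and 6697170 of the plus strand (GENCODE v29, GRCh38), whereas the other 9 genes lie on chromosome 1. Its level was 38.0, 23.3, 17.2 and 39.0 CPM in NOS1 replicates 1 to 4. It was 20.04, 17.6, 21.0 and 24.7 CPM in VOS2 and 8.93, 7.42, 13.4 and 13.8 CPM in IBD. Every IBD library lay below every NOS1 and VOS2 library, while the ranges of NOS1 and VOS2 overlapped. Its mean was 29.4 ± 10.8 CPM (SD, n = 4) in NOS1, 20.8 ± 2.96 CPM in VOS2 and 10.9 ± 3.20 CPM in IBD.

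The log2 fold change of S100P was -0.91 ± 0.25 (SE) in IBD against VOS2, a level 1.88-fold lower, and -1.40 ± 0.25 in IBD against NOS1, 2.65-fold lower. These are the contrasts that chose the gene, and no p is given for them. Without NOS1 replicates 1 and 4 the second value was -0.89 ± 0.22 and the first -0.90 ± 0.18. In VOS2 against NOS1 S100P stood at -0.50 ± 0.24 (edgeR adjusted p = 0.517), and at 0.01 ± 0.22 without those 2 libraries. Its counts were low, 133 to 239 per IBD library and 296 to 769 in the others.

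**Figure D1:**
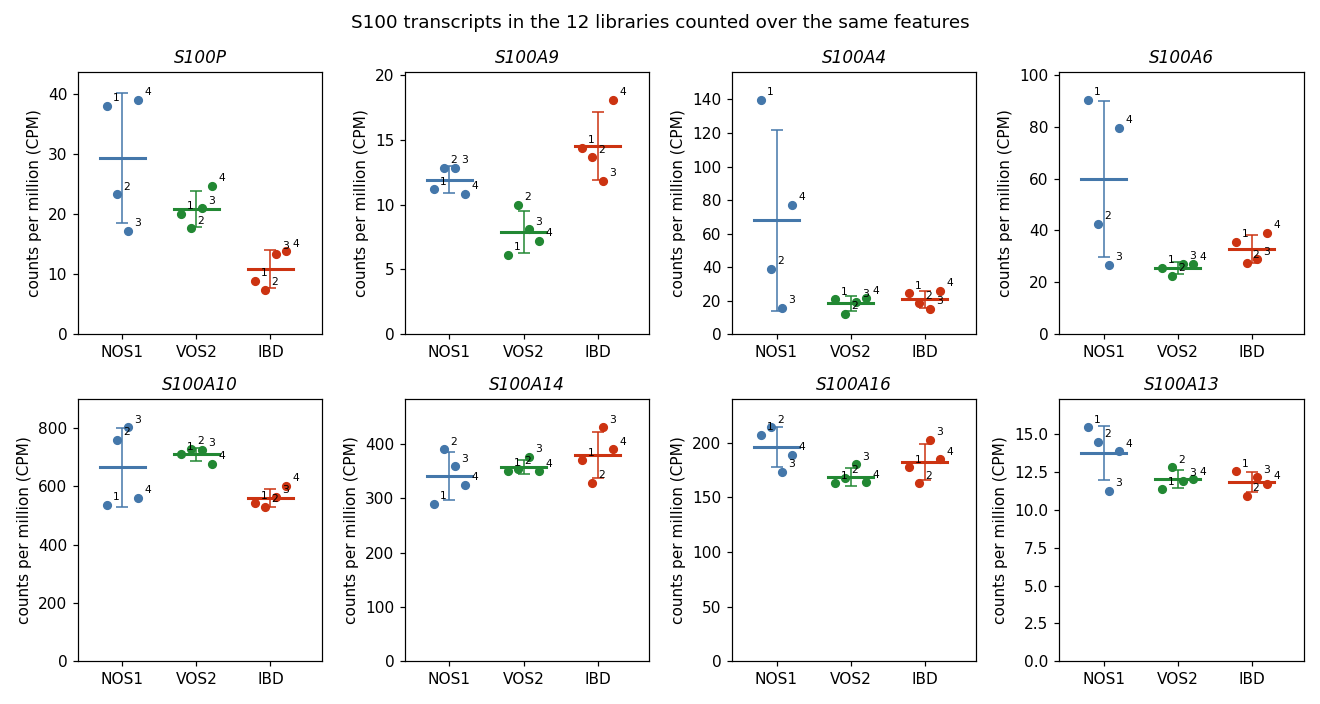
Level of 8 S100 genes in CPM (y axis, linear, from 0) in each library of NOS1, VOS2 and IBD (x axis). Points are libraries with their replicate numbers, horizontal lines the mean of 4, bars 1 SD. S100P is lowest in IBD, S100A9 is lowest in VOS2, and NOS1 replicates 1 and 4 are high for S100P, S100A4 and S100A6.

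S100A9, the calprotectin subunit, was higher in IBD than in VOS2, and its IBD range overlapped that of NOS1. It measured 11.2, 12.8, 12.8 and 10.9 CPM in NOS1, 6.15, 9.99, 8.10 and 7.23 CPM in VOS2, and 14.4, 13.7, 11.8 and 18.1 CPM in IBD. All VOS2 libraries lay below all NOS1 and all IBD libraries, and the ranges of IBD and NOS1 overlapped. The fold change was 0.91 ± 0.17 in IBD against VOS2, a level 1.88-fold higher, and 0.30 ± 0.17 in IBD against NOS1. In VOS2 against NOS1 S100A9 stood at -0.60 ± 0.17, with all libraries lower and an edgeR adjusted p of 0.319, which did not pass the threshold of 0.05. That adjusted p was the smallest of any gene in the comparison, shared by tied genes, and the unadjusted edgeR p was 0.00283.

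S100A8, its partner in calprotectin, was all but absent from the tables. Its count was 0 in 15 of the 16 libraries and 2 in NOS1 replicate 4, or 0.101 CPM. A count of 0 is compatible with up to 3 counts per library, and the gene did not pass the filter on low counts. S100A12, the third calgranulin of human neutrophils, had 0 counts in all 16 libraries.

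Markers of myeloid cells, which are rich in S100A8 and S100A9, were summed beside these values. The 13 markers came to 21.1 to 23.8 CPM in NOS1, 21.8 to 27.3 CPM in VOS2 and 38.0 to 40.9 CPM in IBD. LYZ, the gene of lysozyme, was the member that differed most, with means of 9.43 ± 1.00, 7.89 ± 0.591 and 24.6 ± 1.75 CPM (SD, n = 4). CD14 went the other way, from 3.55 to 4.30 CPM in NOS1 and 4.24 to 5.35 CPM in VOS2 to 2.51 to 3.20 CPM in IBD. FCGR3A, FCGR3B, FCN1 and TYROBP were at 0 in every library, and PTPRC, which encodes the leukocyte antigen CD45, had at most 3 counts in any. The 7 lymphoid markers summed to at most 1.61 CPM. Across the 12 libraries the 7 fibroblast markers summed to 27.3 to 52.0 CPM and the 5 endothelial markers to 14.3 to 24.6 CPM. The part of the myeloid sum in the S100A9 values was not tested.

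S100A4 and S100A6 differed most between libraries of the static table. S100A4, also called metastasin, binds non-muscle myosin, and S100A6, or calcyclin, binds annexins and the ubiquitin ligase adaptor CACYBP. S100A4 measured 139.7, 39.0, 15.8 and 77.1 CPM in NOS1, 20.9, 12.1, 19.3 and 21.5 CPM in VOS2 and 24.4, 18.5, 15.0 and 25.8 CPM in IBD. S100A6 measured 90.3, 42.7, 26.7 and 79.5 CPM in NOS1, 25.5, 22.5, 27.1 and 26.9 CPM in VOS2 and 35.6, 27.5, 28.9 and 39.1 CPM in IBD. NOS1 replicates 1 and 4 held the highest values of both, and NOS1 replicate 3 lay within the range of VOS2 for both. NOS1 replicates 1 and 4 also had the lowest summed epithelial markers of the 12, a sum led by KRT8 and KRT18. The part of that difference in the S100A4 and S100A6 values was not tested.

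The SD of log2 CPM of S100A4 among the 4 NOS1 libraries was 1.35, against a median of 0.19 over 14773 genes, and in VOS2 and IBD it was 0.39 and 0.36. For S100A6 it was 0.82, 0.12 and 0.24, and for S100P 0.57, 0.20 and 0.44. The median over all genes was 0.15 in VOS2 and 0.20 in IBD. In NOS1 the spread of the other 5 genes above the filter ran from 0.13 for S100A9 to 0.30 for S100A10.

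In VOS2 against NOS1 the log2 fold change was -1.87 ± 0.45 for S100A4 and -1.22 ± 0.27 for S100A6. Their unadjusted edgeR p was 0.000877 and 0.000439. The edgeR adjusted p of each was 0.319, the smallest of any gene in that fit, which tied genes share. Over 20 alternatives the adjusted p of both passed the threshold in 2, with no filter on low counts and without NOS1 replicate 3, and the lowest was 0.0126. Without NOS1 replicates 1 and 4 the values were -0.60 ± 0.30 and -0.47 ± 0.18 (edgeR adjusted p = 0.947 for each). Both 0.0126 and 0.947 were again the smallest of any gene in their fits, so these adjusted p-values depend on all genes tested. In IBD against NOS1 they stood at -1.66 ± 0.45 and -0.83 ± 0.27, and without those 2 libraries at -0.38 ± 0.30 and -0.07 ± 0.18. In IBD against VOS2 they stood at 0.21 ± 0.45 and 0.39 ± 0.27.

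S100A10, which forms a complex with annexin A2 at the membrane and binds plasminogen there, had the highest CPM of the group. It measured 536.4, 758.5, 801.6 and 559.8 CPM in NOS1, 709.3, 726.8, 722.1 and 676.9 CPM in VOS2 and 540.9, 530.1, 562.1 and 601.4 CPM in IBD. All IBD libraries lay below all VOS2 libraries, at -0.32 ± 0.12. NOS1 replicates 1 and 4, the libraries high in S100A4, were the low ones here and lay among the IBD values. In IBD against NOS1 the fold change was -0.23 ± 0.12, and -0.48 ± 0.08 without those 2 libraries. VOS2 against NOS1 gave 0.09 ± 0.12 (edgeR adjusted p = 0.895).

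S100A14 and S100A16 are epithelial members, and S100A13 takes part in the release of FGF1. S100A14 measured 341.0 ± 43.3 CPM in NOS1, 357.2 ± 12.5 CPM in VOS2 and 379.4 ± 42.7 CPM in IBD (SD, n = 4). S100A16 measured 196.0 ± 18.4, 168.8 ± 7.94 and 182.1 ± 16.5 CPM in the same order, and S100A13 13.8 ± 1.79, 12.0 ± 0.60 and 11.8 ± 0.68 CPM. Their ranges overlapped in all 3 comparisons, and their fold changes lay between -0.22 ± 0.08 (S100A16, VOS2 against NOS1) and 0.18 ± 0.10 (S100A14, IBD against NOS1). Their edgeR adjusted p in VOS2 against NOS1 was 0.912 for S100A14, 0.396 for S100A16 and 0.621 for S100A13.

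**Figure D2:**
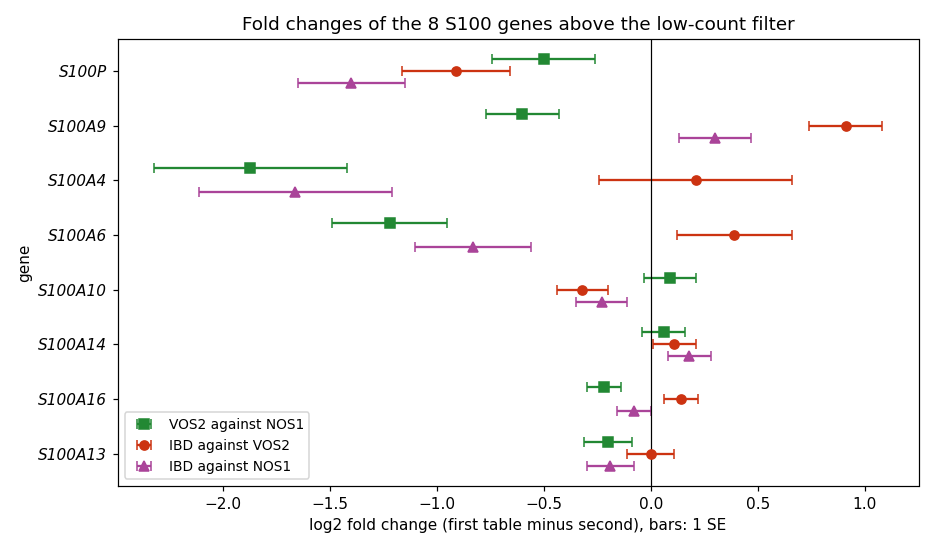
Log2 fold change (x axis) of the 8 S100 genes above the low-count filter (y axis) in 3 comparisons, with bars of 1 SE from edgeR. S100P is negative in all 3, S100A9 is positive in both IBD comparisons and negative in VOS2 against NOS1, and the widest bars are those of S100A4.

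Counted over the whole group, 8 of the 10 genes passed the filter on low counts, the exceptions being S100A8 and S100A11. In VOS2 against NOS1, 0 of the 8 passed an edgeR adjusted p of 0.05, beside 0% of all genes, and 4 had an unadjusted p under 0.05, beside 1457 of 14773 genes. DESeq2 called 6 genes there, and 0 of them were S100 genes. In 1 of the 8, S100A9, the 2 tables did not overlap, beside 4.58% of all genes. The median log2 fold change of the 8 was -0.36, against -0.00 for all genes.

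In IBD against VOS2, 2 of the 8 were past the threshold as a description, S100A9 higher and S100P lower, beside 4.56% of all genes. In 4 the tables did not overlap, with S100A6 and S100A9 higher and S100P and S100A10 lower, beside 12.8%. In IBD against NOS1, 2 were past it, S100P and S100A4, both lower, beside 5.81% of all genes. In 1, S100P, the tables did not overlap, beside 10.2%. The call of S100P in IBD against VOS2 was lost with RLE size factors and in 10 of the 12 fits that left out 1 library, and that of S100A4 in IBD against NOS1 in 10 of the 12. The group was chosen on these 2 contrasts, which share the IBD libraries, and nothing is read from the counts. Both NOS1 and VOS2 also enter the third comparison, so the 3 sets of fold changes are not independent.

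Ranked per length, as CPM per kilobase of exon over the 12 libraries, S100A10 came first with 417.3 ± 63.9 (SD, n = 12), then S100A14 with 281.3 ± 28.5 and S100A16 with 107.2 ± 10.5. S100A10 and S100A14 overlapped no other gene in range, whereas S100A16, from 95.8 to 125.9, lay within the reach of S100A4, whose highest library was at 136.3. S100A6 (40.5), S100A4 (34.9), S100A9 (19.8), S100P (15.9) and S100A13 (5.65) followed, and each of these overlapped its neighbour in range. The deposited FPKM, which in these tables is scaled by a length close to the whole gene span, put S100A14 first with 131.5 and S100A10 second with 58.8, with a span of 11476 bases for S100A10 and 2732 for S100A14. The features counted in these 12 libraries appear to cover about that span, with an implied length of 10945 bases for S100A10 against 1543 of exon. The exon scale thus divides by less than was counted over, and the order of S100A10 and S100A14 depends on the scale. S100A11 (0.397 CPM per kilobase) and S100A8 were at the bottom on both scales.

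The low level of S100A11 belonged to 3 tables only. Its counts ran from 0 to 10 in the 12 libraries of NOS1, VOS2 and IBD and from 1610 to 4371 in VOS1, where its level was 71.9, 71.3, 75.9 and 155.3 CPM. In VOS1 S100A11 ranked 4th of the 10 by deposited FPKM, with 144.2 ± 63.5 (SD, n = 4), behind S100A10 (850.8), S100A14 (456.4) and S100A16 (154.1). The length implied by counts and FPKM was 15403 bases in the 3 tables and 649 bases in VOS1. In GENCODE v29, 87.35% of its exon bases lie inside the span of the antisense gene AL450992.1 on the opposite strand. That antisense gene had 15 to 36 counts in the 12 libraries and 20 to 25 in VOS1.

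S100A1, S100A3 and S100G, the gene of calbindin-D9k, had the same pattern. Each had 0 counts in all 12 libraries. In VOS1 S100A1 had 162 to 242 counts, S100A3 94 to 353 and S100G 1511 to 2681. All exon bases of S100A1 lie inside S100A13 and its neighbours on the opposite strand, all of S100A3 inside S100A4 on the same strand, and all of S100G inside CTPS2 on the opposite strand. Of the 12 other S100 rows listed, S100A2, S100A5, S100A7, S100A7A, S100A7L2, S100A12, S100B and S100Z have no exon base inside another gene. The part of the counting features in these zeros was not tested, and levels of overlapping S100 genes are uncertain in every table because no source used here gives the strand setting of the counting.

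**Figure D3:**
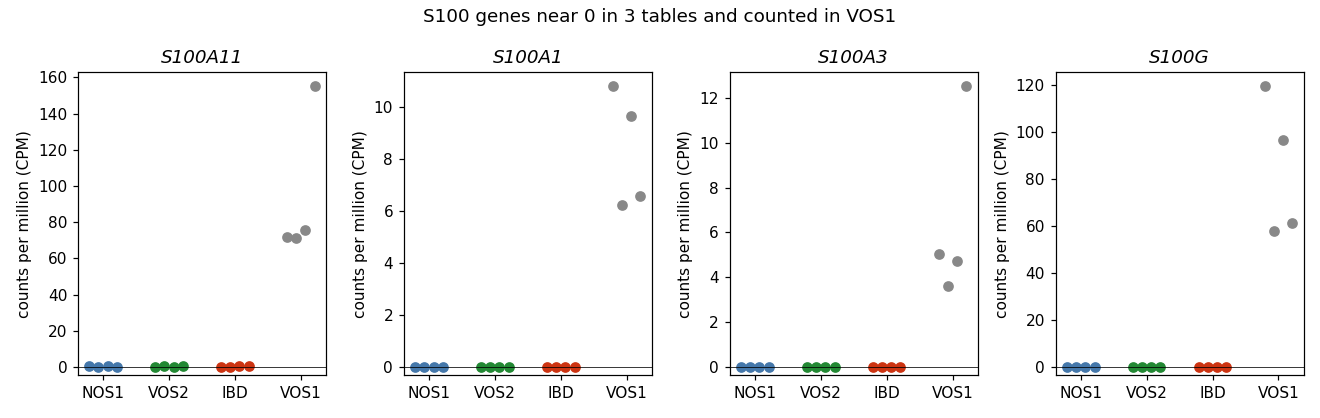
Level of S100A11, S100A1, S100A3 and S100G in CPM (y axis, linear) in each library of the 4 tables (x axis), 4 points per table. The 12 libraries of NOS1, VOS2 and IBD are at or near 0, and the 4 VOS1 libraries, counted over shorter features, reach 155.3 CPM for S100A11.

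Among the other members, VOS1 held S100P at 12.5, 11.7, 10.7 and 9.95 CPM and S100A9 at 5.22, 4.68, 4.44 and 3.52 CPM. S100A4 was at 30.9 ± 11.8 CPM, S100A6 at 72.3 ± 16.7 CPM and S100A10 at 861.0 ± 190.5 CPM (SD, n = 4). S100A13 was at 26.1 ± 4.55 CPM, S100A14 at 582.9 ± 43.0 CPM and S100A16 at 262.2 ± 65.5 CPM. S100A6, S100A13, S100A14 and S100A16 are among the genes whose implied length in VOS1 equals their exon length, 971, 2216, 1277 and 1701 bases.

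S100A13 and S100A6 also share sequence with neighbours. In S100A13, 88.09% of exon bases lie inside AL162258.1 on the same strand and 30.91% inside S100A1 on the opposite one. In S100A6, 26.26% lie inside BX470102.1 on the opposite strand. S100P, S100A8, S100A9, S100A10, S100A14 and S100A16 overlap no other gene, and no exon base of S100A4 lies inside S100A3.

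Of the 12 other S100 genes and partners in the list, 3 passed the filter: S100A2, S100Z and S100PBP, the gene of an S100P-binding protein. None of them passed an edgeR adjusted p of 0.05 in any comparison. S100PBP stood at -0.17 ± 0.09 in IBD against VOS2 (edgeR adjusted p = 0.363). S100A2 ran from 0.877 to 3.45 CPM in NOS1, 0.416 to 1.27 CPM in VOS2 and 1.26 to 1.79 CPM in IBD.

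The gene lists that follow were chosen with earlier results of these data known. Over all tested genes 4.56% were called in IBD against VOS2 and 5.81% in IBD against NOS1, and each list count stands beside these shares. Of 12 annexins, 11 were tested. ANXA6 rose in IBD against VOS2, by 0.40 ± 0.10 (edgeR adjusted p = 0.029). ANXA1, the partner of S100A11, was lower in IBD than in NOS1, at -0.80 ± 0.21 (edgeR adjusted p = 0.0393), and stood at -0.31 without NOS1 replicates 1 and 4 (edgeR adjusted p = 0.423). ANXA2, the partner of S100A10, stood at 0.02 ± 0.08 in IBD against VOS2 and -0.11 ± 0.08 in IBD against NOS1, with edgeR adjusted p-values of 0.932 and 0.446, and its mean was 1093 CPM in IBD and 1099 CPM in VOS2. ANXA11, a partner of S100A6, stood at -0.08 ± 0.08 in IBD against VOS2 (edgeR adjusted p = 0.638). None of the 11 passed in VOS2 against NOS1.

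Of 10 receptors, 7 were tested and 0 passed in any of the 3 comparisons. AGER, which encodes RAGE, the receptor of S100P, S100A4 and S100A9 among others, stood at 0.24 ± 0.26 in IBD against VOS2 (edgeR adjusted p = 0.669). TLR4, a receptor of calprotectin, had 0 counts in the 12 libraries.

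Of 23 intracellular and secreted partners, 14 were tested. EZR, the gene of ezrin, which S100P activates, fell in IBD, at -0.25 ± 0.06 against VOS2 (edgeR adjusted p = 0.0283) and against NOS1 at -0.28 ± 0.06 (edgeR adjusted p = 0.0165). Its mean was 403.8 CPM in NOS1, 396.7 CPM in VOS2 and 327.6 CPM in IBD. CYBA, a subunit of the phagocyte NADPH oxidase, whose activity calprotectin supports, rose in IBD against VOS2 by 0.29 ± 0.07 (edgeR adjusted p = 0.0245). The other 12 tested partners did not pass in IBD against VOS2, nor did 13 of the 14 in IBD against NOS1.

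Of 14 listed regulators of S100A8 and S100A9, 12 were tested, and in IBD against VOS2 3 rose and 1 fell, beside 4.56% of all genes. The list was chosen with earlier results known, so its counts and medians are not independent support. NFKBIA, the inhibitor that NF-kB itself induces, rose 2.82-fold (SE 0.16 on the log2 scale, edgeR adjusted p = 0.000109), from 51.7 ± 6.58 CPM to 143.3 ± 8.92 CPM. CEBPD, a C/EBP transcription factor of the acute phase, rose by 1.11 ± 0.10 (edgeR adjusted p = 6.89e-05), from 18.0 ± 1.78 CPM to 38.3 ± 2.39 CPM. IL6ST, the signalling chain of the interleukin 6 receptor, rose by 0.60 ± 0.12 (edgeR adjusted p = 0.00973), and CEBPA fell, at -0.49 ± 0.11 (edgeR adjusted p = 0.0219).

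Against NOS1 the same 3 regulators rose in IBD. NFKBIA stood at 1.33 ± 0.16, CEBPD at 1.01 ± 0.10 and IL6ST at 0.67 ± 0.12, with edgeR adjusted p-values of 0.000303, 0.000183 and 0.00585. CEBPB fell, at -0.49 ± 0.12 (edgeR adjusted p = 0.0342). NFKBIA and CEBPD passed in all 20 alternatives of both comparisons, whereas the other calls of list genes were lost in 2 to 15 of the 20. None of the 12 passed in VOS2 against NOS1. The median of the 12 was 0.20 in IBD against VOS2 and 0.18 in IBD against NOS1, against -0.01 and -0.02 for all genes.

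Of 17 other calcium sensors, 14 were tested. CIB1 and SRI rose in IBD against VOS2, by 0.51 ± 0.13 (edgeR adjusted p = 0.043) and 0.32 ± 0.08 (edgeR adjusted p = 0.0384), and the other 12 did not pass. In the remaining comparisons 0 of the 14 passed. Of 19 neighbours of the S100 cluster on chromosome 1, 8 were tested and 2 were lower in IBD than in NOS1. CHTOP stood at -0.24 ± 0.06 (edgeR adjusted p = 0.0414) and NPR1 at -2.43 ± 0.65 (edgeR adjusted p = 0.0423), and 0 of the 8 passed in IBD against VOS2. Without NOS1 replicates 1 and 4 NPR1 stood at -0.45, with an edgeR adjusted p of 0.686.

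Among 9994 candidate genes (log2 CPM averaging 2 or more), 5 had the profile nearest to that of S100P over the 12 libraries, by the root mean square difference between centred log2 CPM values. They were CTH (0.30), FBXL16 (0.34), SLC6A9 (0.35), PELI2 (0.35) and CREG2 (0.35). CTH, the gene of cystathionine gamma-lyase, had means of 32.6 CPM in NOS1, 25.5 CPM in VOS2 and 14.9 CPM in IBD. SLC6A9, a glycine transporter, had means of 83.3, 75.1 and 34.1 CPM. These genes were picked for likeness to S100P, so their lower IBD values follow from the choice. Of the other S100 genes S100A6 was nearest to S100P, at 0.59.

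The same measure for S100A4 gave BST2 (0.25), SLC38A5 (0.25), PSMB8 (0.26), PSCA (0.26) and PSMB9 (0.29). BST2 is an interferon-induced membrane protein, and PSMB8 and PSMB9 are subunits of the immunoproteasome. BST2 ran from 5.73 to 59.3 CPM in NOS1, 4.22 to 9.44 CPM in VOS2 and 5.61 to 14.0 CPM in IBD. S100A6 stood at 0.41 from S100A4. This query was added after the values had been seen.

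**Figure D4:**
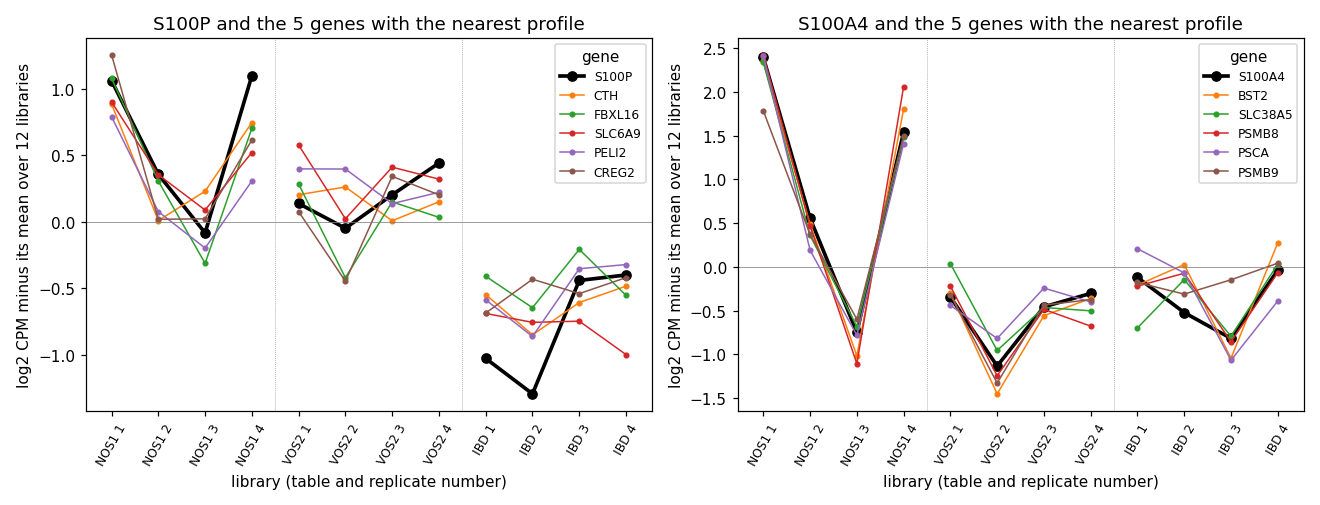
Log2 CPM minus its mean over 12 libraries (y axis) by library (x axis, table and replicate) for S100P with its 5 nearest genes on the left and S100A4 with its 5 on the right. The S100P set lies lowest in IBD, and the S100A4 set is highest in NOS1 replicates 1 and 4. Both patterns follow from picking genes by likeness.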

How the data were processed

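RNA-seq libraries were made from polyT-selected mRNA of Caco-2 cells, per the labels' protocols, with no step that marks strand. The submitters' processing notes name the build hg38 and the tools STAR 2.7.11a, featureCounts 2.0.6, DESeq2 1.42.0, FastQC 0.12.1 and fastp 0.23.4, without settings. The authors deposited raw counts and FPKM, each as 4 tables of 61228 genes. Columns were assigned to tables by code, so replicates have only their number, and 0 columns were left unused. Only 1 sample carries a batch number. The design text calls the replicates biological without saying how they were made, and the p-values therefore reflect the spread among these libraries, which may be technical.

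CPM was computed from the deposited counts. edgeR 4.0.16 (R 4.3.3) fitted a quasi-likelihood model of 12 libraries with TMM scaling and the default filter, which left 14773 genes, and p-values were adjusted by Benjamini-Hochberg over all of them with a threshold of 0.05. The procedure was tested on simulated counts with the same spread set for all genes and tables. The wider spread of S100A4 and S100A6 in NOS1 was therefore not covered by that test. The 10 members were tested in VOS2 against NOS1 alone. In the IBD contrasts, on which they were chosen, their values, errors and calls past the threshold are descriptions, also under the alternatives. Genes of the lists, other S100 genes included, were tested in all 3 comparisons.

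The members and lists were chosen with earlier results of these data known. The rule named all 10 members, each tested S100 gene of the list, ANXA1, ANXA2, ANXA11, AGER, TLR4, up to 4 genes per list past the threshold and the 5 nearest profiles to S100P. The TATAAA motif, the S100A4 profile query, the per-gene overlaps of the other S100 genes and the choice of myeloid markers to name were added after seeing the data. Chromosomes and overlaps come from GENCODE v29, promoters from RefSeq. The alternatives were 20 per comparison: RLE factors, library size alone, no filter, DESeq2 1.42.0, all 16 libraries, a replicate block, each library left out in turn, and NOS1 replicates 1 and 4 or IBD replicates 3 and 4 left out together. Replicates of a group differed by more than sampling noise in every pair, and none was merged.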

Additional observations from a re-analysis of the deposited data

Results flagged for a closer look

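In 3 of 37 groups of 4 libraries, 1 library lay far from the others by the gap to its nearest neighbour as a share of the group's range. Chance flags about 1 in 20 groups. S100A8 was at 0.101 CPM in NOS1 replicate 4, from 2 counts, and at 0 in the other 3. S100A11 was at 155.3 CPM in VOS1 replicate 4, above 71.3 to 75.9 CPM in the other 3 VOS1 libraries. S100A14 was at 375.7 CPM in VOS2 replicate 3, above 349.3 to 353.7 CPM in the others.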

How the results depend on the processing

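Some S100 values that were not called turned sign under an alternative. In VOS2 against NOS1 S100P ran from -0.68 to 0.01, S100A10 from -0.17 to 0.20 and S100A14 from -0.10 to 0.14, and in IBD against VOS2 S100A14 ran from -0.02 to 0.19 and S100A13 from -0.02 to 0.05. Without NOS1 replicates 1 and 4, values in IBD against NOS1 that moved by more than the replicate spread were -0.89 for S100P, -0.38 for S100A4, -0.07 for S100A6, -0.48 for S100A10 and 0.02 for S100A14. S100A4 and S100A6 passed in VOS2 against NOS1 with no filter (-1.89 and -1.24) and without NOS1 replicate 3 (-2.20 and -1.46). S100P in IBD against VOS2 ran from -1.33 to -0.75. Its call there was lost with RLE factors and without any 1 VOS2 library, any 1 IBD library, NOS1 replicate 2 or NOS1 replicate 4. The call of S100A4 in IBD against NOS1 was lost without any 1 library other than NOS1 replicates 2 and 3, and in both settings that left out 2 libraries. S100A10 was called lower in both IBD comparisons without NOS1 replicates 1 and 4, and S100A6 in IBD against NOS1 with no filter and without NOS1 replicate 3. The group was chosen on the IBD comparisons, so the member calls there, kept, lost or gained, are descriptions and not tests. The cause was not tested.

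In VOS2 against NOS1 the count of calls was 0, against 255 with no filter, 6 with DESeq2 and 2 without IBD replicates 3 and 4, and it ran from 0 to 376 with 1 library left out (376 without NOS1 replicate 3). In IBD against VOS2 it was 674, against 1072 with DESeq2, 222 without IBD replicates 3 and 4 and 316 to 961 with 1 library left out. In IBD against NOS1 it was 858, against 1294 with no filter, 1335 with DESeq2, 362 without NOS1 replicates 1 and 4, 155 without IBD replicates 3 and 4 and 305 to 1351 with 1 library left out. Same-numbered libraries did not deviate together: over 12 pairs r ran from -0.232 to 0.186, and 2 of the 12 libraries correlated best with their own number. With the replicate number as a block the calls were 0, 418 and 593.

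Among the list genes, the calls of ANXA6 held in 13 of 20 alternatives, ANXA1 in 9, EZR in 10 (against VOS2) and 14 (against NOS1), CYBA in 13, IL6ST in 18 in both, CEBPA in 14, CEBPB in 11, CIB1 in 10, SRI in 11, CHTOP in 5 and NPR1 in 8. Most of those lost were lost by leaving out libraries. By level per length, S100A4, S100A6, S100A9, S100A10, S100A11, S100A14 and S100P changed rank on another scale. For S100A8, depth leaves room for up to 3 counts in a library where none was seen.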
